A study of Caenorhabditis elegans with 2 samples.

Results

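The regions described here are 262 binding peaks of the homeodomain protein CEH-88 on the autosomes of Caenorhabditis elegans, each lying in a promoter shared by genes on opposite strands. They were chosen by position alone from a deposited list of 1349 peaks for the whole experiment. A peak was taken when it was not on X and its summit lay in the promoter windows of at least 1 plus-strand and at least 1 minus-strand protein-coding gene, where a window covered the 1000 bp before and the 200 bp after every start of a protein-coding transcript. The members made up 23.6% of the 1109 autosomal peaks (exact 95% interval 21.2 to 26.2) and 36.8% of the 712 autosomal peaks in any promoter window (33.2 to 40.5). The other autosomal peaks were 450 with a summit in windows of a single strand, called one-direction peaks below, and 397 outside all windows. On X, 12 of 240 peaks met the same condition on position and were not included.

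The peaks came from chromatin immunoprecipitation and sequencing (ChIP-seq) of whole starved L1 larvae of age 6 h, collected after bleaching, of strain OP593. The worms carried the transgene wgIs593, a fosmid clone of ceh-88 joined to TY1 EGFP 3xFLAG and accompanied by unc-119(+), in the unc-119(tm4063) mutant background. Chromatin was precipitated through the tag with anti-GFP. The only group had 2 biological replicates, so conditions could not be compared, and worms lacking the tag were not analysed here. The tagged copy is additional to the worm's own gene, and whole larvae resolve no cell type, so a peak strong in few cells and a peak weak in many cannot be told apart.

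A divergent promoter is a stretch of DNA from which 2 neighbouring genes are transcribed away from each other, so that a factor bound there lies upstream of both. In the compact genome of C. elegans such arrangements are common, and many genes of basic cell function lie in them. Many nematode transcripts are trans-spliced, which removes the original 5' end, so an annotated start can lie downstream of the place where transcription begins. Homeodomains are known to bind short sequences, often with a TAAT core.

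The DNA under the strongest summits is shown first, to let the short words that recur among the members be seen. Each window below is 101 bp long and centred on a summit, read 5' to 3' on the plus strand of the RefSeq copy of ce11, for 8 of the 12 strongest members. A pair is named with the minus-strand gene first. Capitals mark copies, on either strand, of the 12 hexamers with the lowest p at member summits, given further below.

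K01G5.10 / tasp-1 (chrIII:10759203-10759303, signal 1010): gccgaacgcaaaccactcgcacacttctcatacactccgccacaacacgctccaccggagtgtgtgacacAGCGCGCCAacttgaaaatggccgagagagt
rpl-20 / Y17G9B.5 (chrIV:4750034-4750134, signal 818): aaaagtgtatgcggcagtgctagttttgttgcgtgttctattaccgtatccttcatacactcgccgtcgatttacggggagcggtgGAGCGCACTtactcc
rpl-15 / K11H12.8 (chrIV:654870-654970, signal 779): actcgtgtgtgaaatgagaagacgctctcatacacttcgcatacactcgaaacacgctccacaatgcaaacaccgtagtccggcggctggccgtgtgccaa
nhl-2 / tag-340 (chrIII:4899855-4899955, signal 596): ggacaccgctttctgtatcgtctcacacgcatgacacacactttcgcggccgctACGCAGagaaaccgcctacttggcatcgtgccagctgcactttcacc
Y22D7AL.10 / hsp-60 (chrIII:1619085-1619185, signal 544): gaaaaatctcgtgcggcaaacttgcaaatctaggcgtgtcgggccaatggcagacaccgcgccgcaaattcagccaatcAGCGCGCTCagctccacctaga
iff-2 / F54C9.14 (chrII:8561375-8561475, signal 502): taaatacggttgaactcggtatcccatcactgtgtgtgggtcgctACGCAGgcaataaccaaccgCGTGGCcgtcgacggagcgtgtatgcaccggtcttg
rpl-12 / lin-54 (chrIV:13240659-13240759, signal 476): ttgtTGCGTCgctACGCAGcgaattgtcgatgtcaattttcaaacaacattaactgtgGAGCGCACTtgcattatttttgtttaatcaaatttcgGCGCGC
cct-8 / Y55F3AR.2 (chrIV:1094300-1094400, signal 453): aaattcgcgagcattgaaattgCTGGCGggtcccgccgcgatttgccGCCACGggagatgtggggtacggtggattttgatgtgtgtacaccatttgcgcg

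Of these windows, 7 hold at least 1 of the 12 hexamers and that of rpl-15 / K11H12.8 holds none. The window of rpl-12 / lin-54 holds 6 of them, and G and C make up between 41.6% and 57.4% of the bases in the 8 windows. Over all members, 74% of the windows hold at least 1 of the 12 hexamers, 88 members hold 3 or more and 68 hold none. The same 12 were present in 15.1% of the windows 250 bp to either side, in 61.3% of one-direction summit windows and in 17.1% of 17242 promoter windows of the same length centred 150 bp upstream of a gene's start. Since the 12 were picked at these summits, the first share is a description only.

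The members ranged widely in strength. The signal value, the peak caller's own measure of enrichment in the deposited list, ran from 2.15 to 1010 with a median of 128 and quartiles of 89 and 209. In the replicates' own ranked lists, the strongest region touching a member had a median signal of 78.7 in replicate 1 (quartiles 56.2 and 125, 261 members with a region) and of 58.8 in replicate 2 (37.6 and 84.3, 253 members). The signal has no stated scale between lists, and read depth was not given, so the depth behind each value is unknown.

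The strongest member lay between K01G5.10 and tasp-1, a homologue of the protease taspase, with a signal of 1010. Replicate 1 gave 560 there and replicate 2 gave 456, both the highest of any member. Its summit was 54 bp upstream of the tasp-1 start and 731 bp upstream of the K01G5.10 start, so it lay close to a single side of a wide promoter. The next 3 stood upstream of ribosomal protein genes. The member at rpl-20 / Y17G9B.5 had 818 (463 and 366 in replicates 1 and 2), that at rpl-15 / K11H12.8 had 779 (445 and 348), and that at rps-19 / hsr-9 had 743 (485 and 248). HSR-9 is the nematode homologue of 53BP1, a protein of the DNA damage response, so a single summit here lies upstream of a ribosomal gene and a repair gene.

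Further down, nhl-2 / tag-340 had a signal of 596 (327 and 273), where NHL-2 is a TRIM-NHL protein that works with microRNAs. At Y22D7AL.10 / hsp-60 the signal was 544, and it was slightly lower in replicate 1 than in replicate 2 (274 and 280). The iff-2 / F54C9.14 member, beside a gene for the translation factor eIF5A, had 502 (272 and 216). F56G4.6 / wbp-4 had 499 (269 and 239) and ndk-1 / F25H2.6, beside a nucleoside diphosphate kinase gene, 492 (297 and 190). These 9 were past the threshold in both replicates.

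Ranks 10 to 20 included genes of chromatin regulators, chaperones and ribosomal proteins. The member at rpl-12 / lin-54 had 476 (262 and 210) and that at lin-53 / nra-2 had 468 (239 and 238). LIN-54 is the DNA-binding subunit of the DREAM repressor complex and LIN-53 is a histone chaperone of the RbAp46/48 type. Chaperone genes followed, with cct-8 / Y55F3AR.2 at 453 (261 and 192), C47E8.4 / hsp-90 at 432 (238 and 179) and mig-5 / cct-1 at 420 (261 and 160). CCT-1 and CCT-8 are subunits of the cytosolic chaperonin, and MIG-5 is a Dishevelled protein of Wnt signalling. The rest of the 20 were ska-3 / rps-12 at 387, drr-2 / set-16 at 384, ifet-1 / rps-1 at 382, larp-1 / wip-1 at 367, rpl-7A / set-21 at 364 and gpap-1 / scpr-1 at 352. SET-16 is a histone H3 lysine methyltransferase of the MLL type, IFET-1 a translational repressor and LARP-1 a La-related RNA-binding protein. All 20 strongest members touched a thresholded peak of each replicate, and in the first 52 by rank this held without exception.

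**Figure D1:**
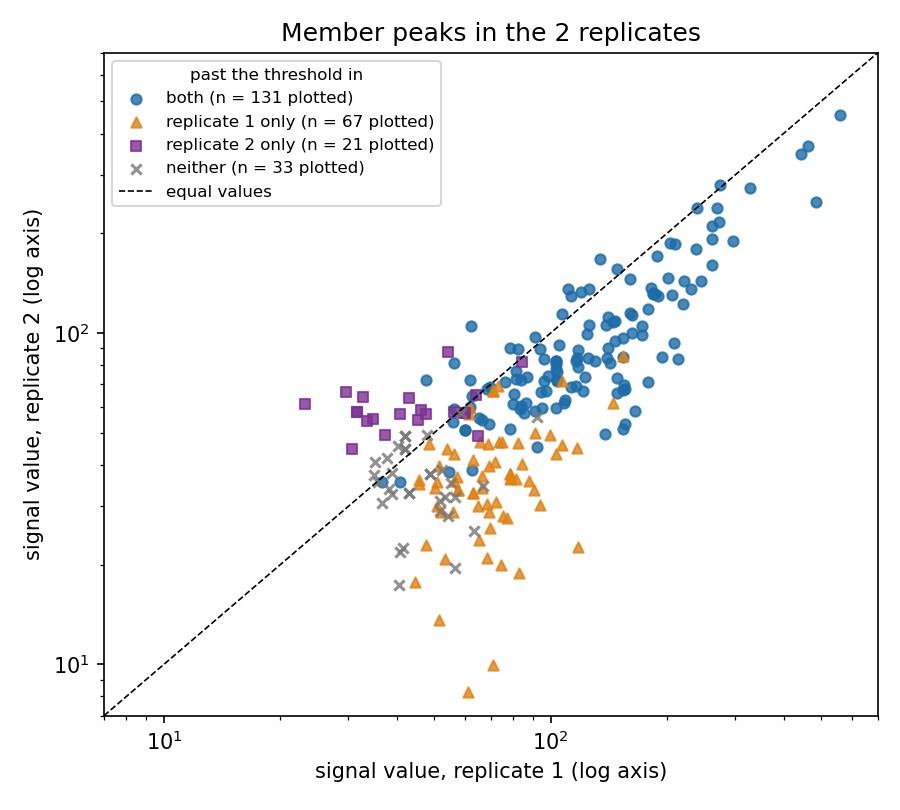
Signal of each member peak in replicate 1 (x axis, log) and replicate 2 (y axis, log), by whether the peak touched a thresholded peak of both replicates, of 1 or of neither; the dashed line marks equal values and 252 of 262 members have a region in both ranked lists. Most points lie below the line, and the 131 members past the threshold in both replicates fill the upper right.

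The replicates ordered the members alike, and replicate 1 gave the higher value at most of them. Of the 252 members with a region in both ranked lists, 209 had a higher signal in replicate 1. The log2 ratio of replicate 1 to replicate 2 had a median of 0.49 and an SD of 0.62 over these members. Pearson's r between the replicates' log2 signals was 0.75 across these members, and Spearman's rho was 0.74. These are descriptions over peaks that share 2 libraries and were selected by a joint threshold, and neighbouring peaks can take their value from a single replicate region.

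The thresholded lists of the replicates hold no region scoring below 830 of at most 1000, and a member was counted for a replicate when it touched a peak of that replicate's thresholded list by at least 1 bp. In replicate 1 this held for 206 members (78.6%, exact interval 73.2 to 83.4), against 69.9% of all 1109 autosomal peaks, and in replicate 2 for 153 (58.4%, 52.2 to 64.4), against 50%. Both replicates passed at 131 members (50%, 43.8 to 56.2), against 40.8% of all autosomal peaks. Another 75 passed in replicate 1 alone, 22 in replicate 2 alone and 34 in neither. Members past the threshold in both had a median signal of 207, and those in neither 74.8. When shared peaks had to overlap by 50% of both regions, the both-replicate share of members fell to 38.9%.

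Among the 252 members with a region in both ranked lists, the widest differences in each direction were at members with signals of 131 or less. Another 9 members had no region in replicate 2 and 1 had none in replicate 1, so they have no ratio. The second ecps-1 / atx-2 peak had 61.2 in replicate 1 and 8.24 in replicate 2, a log2 ratio of 2.89. At aha-1 / C25A1.15, next to the gene of the nematode ARNT homologue, the values were 71.1 and 9.99, and at Y71G12B.30 / chaf-2, next to a chromatin assembly factor gene, 118 and 22.6. In the other direction, 1 of the 3 peaks at wht-3 / har-1 had 23.2 and 60.9, a log2 ratio of -1.39. A peak at C06B3.6 / C06B3.7 had 29.6 and 66.3, and F22D6.8 / F22D6.9 had 32.7 and 64.2. Each of these 6 passed the threshold in only the replicate with its higher value.

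The lowest signals belonged to peaks that overlap stronger ones. The 3 weakest members were F40F11.3 / mig-38 at 2.15, C06B3.6 / C06B3.7 at 4.69 and nath-10 / dhs-2 at 5.61. The regions there had 70.8 and 67, 36.7 and 35.6, and 42 and 44.8 in replicates 1 and 2. All 10 members with a signal under 30 overlapped a stronger thresholded peak, as did 14 members in all, and a replicate region can then be that of the neighbour. In 12 gene pairs more than 1 member was present, with the outermost summits 199 to 820 bp apart (median 250 bp). The 262 members therefore stand for 247 distinct nearest gene pairs.

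Divergent-promoter peaks were stronger than one-direction promoter peaks by the main settings, and not under all settings. Of the members, 147 (56.1%) were above 117, the median signal of the 712 autosomal promoter peaks, against 209 of 450 one-direction peaks (46.4%), with an odds ratio of 1.47 and an adjusted p of 0.0218 by Fisher's exact test. Median signals were 128 and 110, and 91.2 at the peaks outside promoters. Of the members 87.8% also touched a peak of the second deposited list, named conservative, against 80.7% of one-direction peaks and 78.3% of all autosomal peaks (odds ratio 1.72, Fisher's exact adjusted p = 0.0218). The both-replicate share was 50% against 43.8%, a difference that did not pass (odds ratio 1.28, Fisher's exact adjusted p = 0.119). Tests were two-sided with Benjamini-Hochberg adjustment over 4 differences, and since peaks are not replicates they describe the peaks of this list. Neither of the differences that passed did so with windows of 500 bp upstream or with the most upstream start of each gene only, and the signal difference also failed in the conservative list and in the peaks of replicate 2 alone. The both-replicate difference passed when shared summits had to lie within 100 bp (odds ratio 1.39, Fisher's exact adjusted p = 0.0415).

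Members were seldom beside genes of small structural RNAs. A tRNA, small nucleolar RNA (snoRNA) or small nuclear RNA (snRNA) gene lay within 250 bp of the summit at 8 members (3.05%, exact interval 1.33 to 5.93), against 36 one-direction peaks (8%) and 60 peaks outside promoters (15.1%). Between members and one-direction peaks the odds ratio was 0.362 (Fisher's exact adjusted p = 0.0218), and it ranged from 0.239 to 0.404 under the other settings tried, of which the 500 bp window, the most upstream start and the conservative list gave adjusted p values above 0.05 by the same test. The 8 were 4 snoRNA, 3 tRNA and 1 snRNA summits. Those near snoRNA genes were ska-3 / rps-12 (387), tmem-107 / rps-26 (170), attf-2 / F09G2.2 (169) and let-70 / klc-1 (108). The snRNA gene was sls-2.8, of the SL2 spliced leader, beside tim-1 / Y75B8A.23 (225). At the tRNA genes the signals were low, 95.7 at rocf-1 / pqn-71 and 82.3 and 20.2 at both summits of gcy-33 / cpr-9. None of these 3 was past the threshold in a replicate.

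The summit lay between the annotated starts at 241 of 262 members. The choice of members by windows that reach farther upstream than downstream favours this position, so the count is a description. The summit was downstream of the plus-strand start at 9 and of the minus-strand start at 12. The plus-strand start was the nearer at 135 members and the minus-strand start at 127. The median distance was 157 bp to the nearer start (quartiles 80 and 232) and 322 bp to the farther (236 and 528). One-direction summits were a median of 252 bp from their nearest start (quartiles 133 and 450). A nearest of several starts is closer than a single start by construction, and this difference was not tested.

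**Figure D2:**
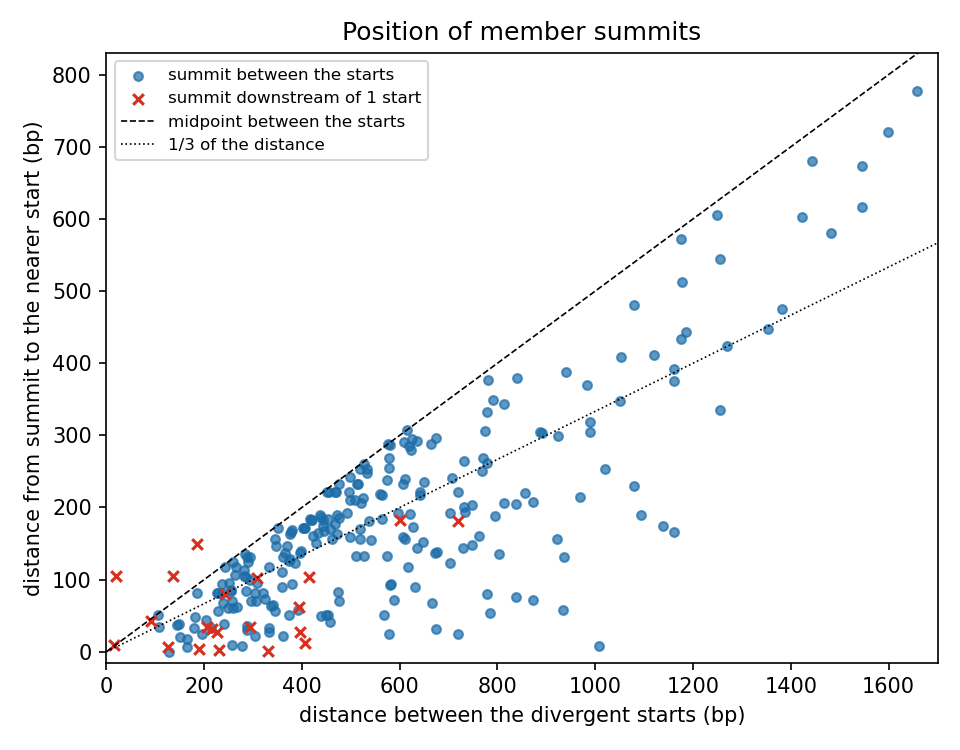
Distance from the summit to the nearer annotated start (y axis, bp) against the distance between both starts (x axis, bp) for the 262 members; the dashed line is the midpoint, the dotted line the edge of the central part described in the text, and crosses are the 21 summits downstream of a start. The median distance to the nearer start grows from 61 bp where starts are under 300 bp apart to 347 bp where they are 800 bp or more apart. For summits between the starts this distance cannot exceed the dashed line.

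The starts of a member's nearest pair were a median of 497 bp apart (quartiles 326 and 727, range 15 to 1659). Measured from the nearer start, summits between the starts lay at a median of 33.8% of the way across (quartiles 22.9 and 42.3). Dividing the distance into 3 equal parts, the central part held 127 of the 241 summits (52.7%, exact interval 46.2 to 59.1), and the median offset from the midpoint was 72.5 bp. A member's summit lies at most 1000 bp upstream of each start, so in the widest pairs only a central position qualifies. These values are therefore descriptions. Members with starts 300 to under 500 bp apart were the most central, with 44 of 69 in the central part (63.8%), against 20 of 46 (43.5%) under 300 bp. Most summits were within 250 bp of the nearer start (79%), and 30.9% were within 250 bp of both.

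The narrowest arrangement was F25H9.6 / F25H9.7, with starts 15 bp apart and a signal of 167 (96.1 and 71.7 in the replicates). Next were Y59E9AL.36 / nbet-1 at 20 bp (86.6) and ears-2 / uncp-18 at 92 bp (136), where ears-2 encodes a glutamyl-tRNA synthetase. In these 3 the summit was downstream of a start. The widest was mif-4 / ipla-6, at 1659 bp (signal 226, with 113 and 129 in the replicates). It was followed by nmat-2 / rab-5 at 1598 bp (106), beside the gene of the early endosome GTPase RAB-5. Next came T26A8.4 / pdtf-1 at 1545 bp, measured between the starts nearest to summits with signals of 86.3 and 54.6. At a further summit of that pair, with a signal of 203, the nearest starts were 145 bp apart. The members closest to the edge of the windows were spd-1 / Y34D9A.3 (73.6), wht-3 / har-1 (94.5) and hsp-6 / C37H5.5 (21.3), inside by 1, 4 and 17 bp. Peaks at R107.5 / cls-2 (217), nasp-2 / C50B6.3 (146) and nep-18 / usp-39 (147) missed by 2, 5 and 15 bp and count as one-direction peaks. The 3 inside had signals below the member median of 128 and the 3 outside had signals above the one-direction median of 110.

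Most divergent promoters held no peak. Of 3010 autosomal pairs of genes whose windows overlap, 270 (8.97%, exact interval 7.97 to 10) held a summit, and 5.75% held one of the peaks of replicate 2 alone. The windows of both strands together cover 2.68% of autosomal bases, and 2.07% of the 99110 autosomal regions ranked below the threshold had a summit there, against 23.6% of the peaks. By genes, 517 of 5485 in such an arrangement had a member summit in their window (9.43%). Among the 11757 autosomal protein-coding genes outside such arrangements, 339 (2.88%, exact interval 2.59 to 3.2) had a summit in their window. A member counts for every gene around it and a one-direction peak usually for 1, so these last shares differ partly by the way they are counted.

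**Figure D3:**
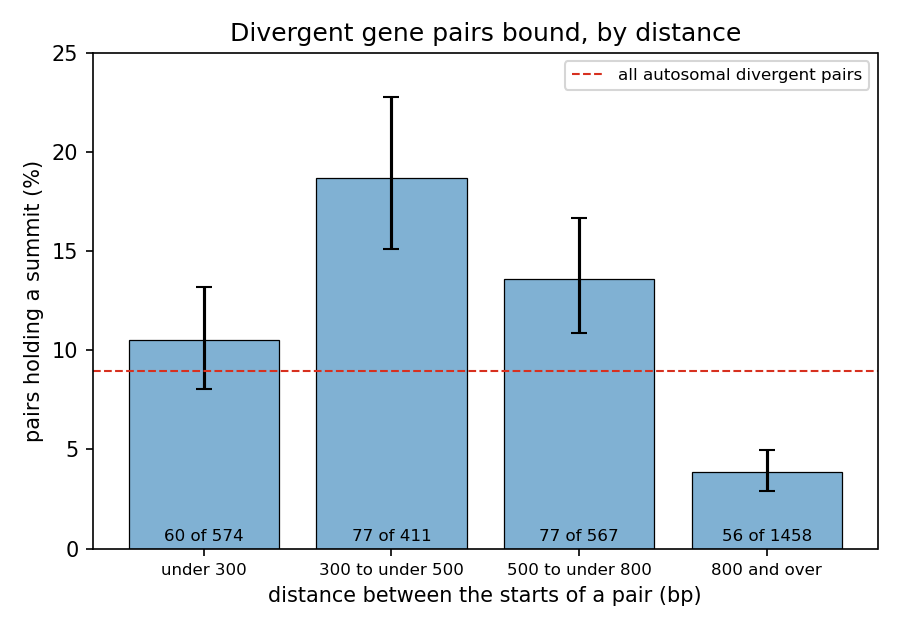
Share of autosomal divergent gene pairs that hold a summit (y axis, %), by the distance between their starts (x axis, bp); error bars are exact 95% intervals, the numbers in the bars are pairs bound of all pairs, and the dashed line is the share over all 3010 pairs. Pairs 300 to under 500 bp apart have the highest share and pairs 800 bp or more apart the lowest.

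Binding was most frequent in pairs with starts at middle distances. A summit was present in 77 of 411 pairs with starts 300 to under 500 bp apart (18.7%, exact interval 15.1 to 22.8) and in 77 of 567 pairs 500 to under 800 bp apart (13.6%, 10.9 to 16.7). Under 300 bp it was 60 of 574 (10.5%, 8.07 to 13.2), a class that includes pairs with overlapping starts. From 800 bp it was 56 of 1458 (3.84%, 2.91 to 4.96). The shared window is longest at middle distances, with medians of 650, 836, 1084 and 668 bp from the narrowest class to the widest. Per megabase of shared window the bound pairs numbered 144, 213, 125 and 60.4 in the same order, so on that scale pairs under 300 bp rank above those of 500 to under 800 bp. Pairs were classed here by the smallest distance between any of their starts. Members classed instead by the starts nearest to their summit had median signals of 119, 132, 127 and 169, highest in the widest class.

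By chromosome the share of pairs bound was 13.8% on III (exact interval 10.9 to 17.1), 10.7% on I (8.25 to 13.6), 8.01% on II (5.94 to 10.5), 7.48% on IV (5.46 to 9.94) and 6.46% on V (4.85 to 8.41). The intervals of neighbours in this order overlap, while that of III lies above those of II, IV and V. Members on V also had the lowest median signal, 108 against 130 to 142 elsewhere, and the lowest both-replicate share, 38.8% against 50% to 55.3%.

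Genes of ribosomal proteins, chromatin regulators and chaperones had the highest shares among 22 gene lists defined by symbol. The lists were chosen with earlier results of these data known, so their shares are descriptions, and they are read against the 9.43% of all divergent genes. Cytoplasmic ribosomal protein genes had the highest share, with 32 of 53 (60.4%, exact interval 46 to 73.5), followed by chromatin regulators with 13 of 29 (44.8%, 26.4 to 64.3) and chaperones with 15 of 35 (42.9%, 26.3 to 60.6). Median signals at the bound genes were 147, 172 and 262. Outside divergent arrangements, 14 of 27 autosomal ribosomal protein genes (51.9%), 8 of 47 chromatin genes (17%) and 7 of 28 chaperone genes (25%) had a summit. These shares are read against the 2.88% of all 11757 autosomal genes outside such arrangements, so these lists were above their background there too. These differences by arrangement were not tested.

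**Figure D4:**
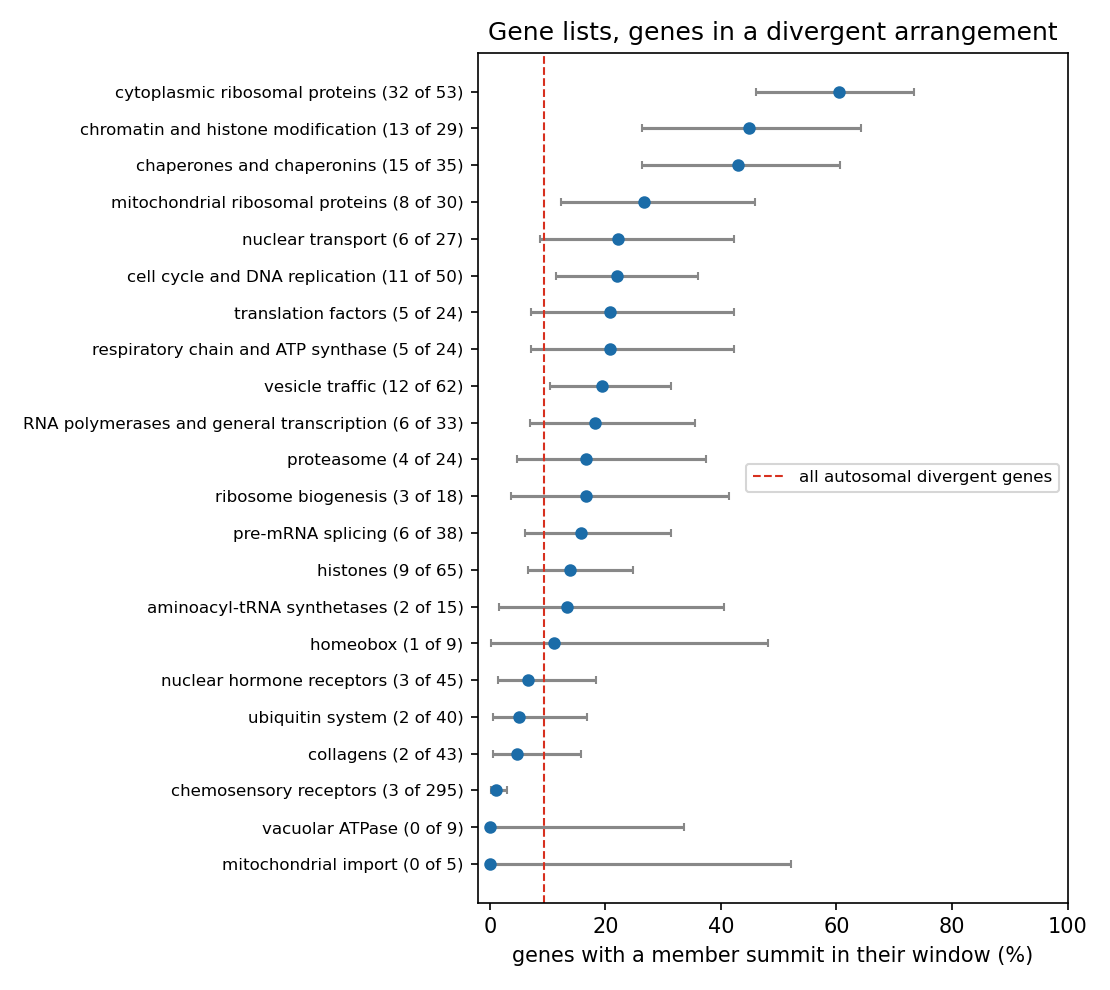
Share of genes in a divergent arrangement with a member summit in their window (x axis, %) for each of 22 gene lists (y axis, bound genes of all such genes in brackets); bars are exact 95% intervals and the dashed line is the 9.43% of all 5485 autosomal divergent genes. The intervals of ribosomal, chromatin, chaperone, mitochondrial ribosomal, cell cycle and vesicle traffic genes lie above the line and that of chemosensory receptors below it.

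At ribosomal protein genes, 29 members had such a gene nearest on at least 1 strand, with a median signal of 166, against 124 at the other 233. After rpl-20, rpl-15 and rps-19 came rpl-12, rps-12, rps-1 and rpl-7A, with values given above, then rps-20 / ekl-4 (312; 184 and 132) and rps-15 / F36A2.9 (301; 148 and 156). In 3 members both genes are ribosomal, namely rps-14 / rpl-36 (145; 76 and 71.1), rps-10 / rpl-24.1 (92.7; 50.1 and 34.1) and rpl-39 / rps-30 (88.7; 50.8 and 35.6). These 3 double promoters were weaker than the median of the ribosomal members. Another 2 join a ribosomal gene to a chromatin gene, rpl-12 / lin-54 and rpl-7A / set-21, and rpl-28 / mrpl-49 (124) joins the cytoplasmic and mitochondrial ribosome. The member at sec-61.A / rps-18 (119), beside the gene of the translocation channel, had its summit 103 bp downstream of the sec-61.A start. Of 26 members with a ribosomal gene on a single side, the summit was nearer to that gene's start in 10 (38.5%, exact interval 20.2 to 59.4).

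Bound chaperone genes had the highest median signal of the 22 lists. Besides hsp-60, cct-8, hsp-90 and cct-1 they included F54D5.9 / dnj-13 (304; 209 and 93.2) and supr-1 / dnj-28 (292; 213 and 83.6), both of the DnaJ co-chaperone family, F01G4.6 / pfd-1 (272; 162 and 113), a prefoldin subunit, and hsp-110 / rpn-3 (262; 160 and 115), which joins a nucleotide exchange factor of Hsp70 to a proteasome lid subunit. The summit was nearer to the chaperone's start in 4 of 15 (26.7%, exact interval 7.79 to 55.1). The weakest, hsp-6 / C37H5.5 at 21.3, overlapped a stronger peak and lay 183 bp downstream of the start of hsp-6, the mitochondrial Hsp70 gene.

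Among chromatin genes the retinoblastoma homologue lin-35, which acts with lin-54 and lin-53 in the DREAM complex, shared a member with the tethering complex gene vps-51 (309; 186 and 131). The list also held efl-1, the E2F homologue of the same complex, jmjd-1.2, epc-1, set-26, mrg-1, ruvb-1, swsn-6 and jmjd-4, which faces the succinate dehydrogenase gene mev-1 (97.8). The cell cycle list, which also holds lin-35, had 11 of 50 (22%, exact interval 11.5 to 36), with eef-1A.1 / rfc-4 (297), teg-1 / mcm-10 (178) and hxk-2 / cdk-9 (174). RFC-4 is a clamp loader subunit and MCM-10 a replication factor. Vesicle traffic had 12 of 62 (19.4%, 10.4 to 31.4), with icd-1 / vps-32.1 (259) and F55A11.1 / syx-5 (244), a Golgi SNARE.

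The mitochondrial ribosome had 8 of 30 (26.7%, exact interval 12.3 to 45.9), led by mrps-7 / Y57G11C.3 at 209 (118 and 88.8), and its median signal of 84 was below that of all members. From the peaks of replicate 2 alone it fell to 3 genes, nuclear transport from 6 to 2, splicing from 6 to 3, the respiratory chain from 5 to 3 and histones from 9 to 3. Apart from chemosensory receptors, the lists that follow had intervals that include 9.43%. Nuclear transport had 6 of 27, with spd-5 / npp-6 (263), npp-3 / top-2 (210) and npp-14 / cel-1 (152). The respiratory chain and ATP synthase had 5 of 24, with mcrs-1 / atp-1 (341), Y71H2AM.20 / cox-6B (241) and C34E10.10 / atp-2 (101), and translation factors 5 of 24, with iff-2, eef-1A.1 and ctf-4 / eef-1G (225). General transcription had 6 of 33, with pqn-59 / taf-4 (231), apb-1 / mdt-19 (202) and cdk-9. Splicing had 6 of 38, with snx-13 / snr-1 (237), prp-19 / K10D2.5 (196) and luc-7L3 / sftb-6 (142). The proteasome had 4 of 24, with pbs-1 / K08D12.3 (92.9) and rpn-5 / scc-1 (75.5) after rpn-3. The fourth, pas-4 / rpb-3, had 71.9 and no region in replicate 2's ranked list.

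Ribosome biogenesis had 3 of 18 (fib-1 / mut-15 at 178, zip-4 / nol-58 at 115 and rpl-9 / lpd-7 at 63.2), tRNA synthetases 2 of 15 (ears-2 and mars-1 / F58B3.6 at 123) and the ubiquitin system 2 of 40 (aka-1 / ubc-6 at 156 and F30A10.9 / usp-48 at 80.3). Histones had 9 of 65 at 5 members. The strongest were his-67 / his-68 (331; 206 and 130) and wapl-1 / htz-1 (231; 141 and 89.9), the gene of the variant H2A.Z. The other 3, his-60 / his-59 (67.4), his-35 / his-41 (61.4) and his-6 / his-5 (59.1), did not touch the conservative list, in which 3 histone genes had a member summit. Core histone genes are near-identical copies, so reads could be placed at the wrong one, at strong and weak members alike. This was not tested.

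The chemosensory receptors were the only list whose interval lay below 9.43%, with 3 of 295 bound (1.02%, exact interval 0.21 to 2.94), among them sri-5 and srh-2. Their partners were rsr-1 (307) and icl-1 (142), where rsr-1 encodes a splicing coactivator related to SR proteins and icl-1 the glyoxylate cycle enzyme. Collagens had 2 of 43, of which col-38 faces rpl-5 (184; 103 and 82.5) and col-71 faces Y49F6B.2 (93.5). Nuclear hormone receptors had 3 of 45, among them nhr-47 opposite the co-chaperone gene dnj-19 (181), H12C20.7 / nhr-68 (88.2) and nhr-142 / F44E7.9 (68.8). The homeobox list, the family of CEH-88 itself, had 1 of 9, malt-1 / ceh-38 (218; 142 and 81.3). No gene of the vacuolar ATPase (0 of 9, exact upper limit 33.6%) or of mitochondrial import (0 of 5, 52.2%) had a member summit, and these lists are too short to tell their shares from 9.43%.

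The summits were richer in G and C than the DNA beside them. G and C made up 45.7% of member summit windows and 35.6% of the windows 250 bp away. At one-direction peaks the values were 46.6% and 36.2%, in promoter windows 33.8%, and midway between the starts of the divergent pairs with no summit 34.7%. This difference in composition moves with the comparisons of summits with flanks and promoters below, and its part in them was not tested.

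**Figure D5:**
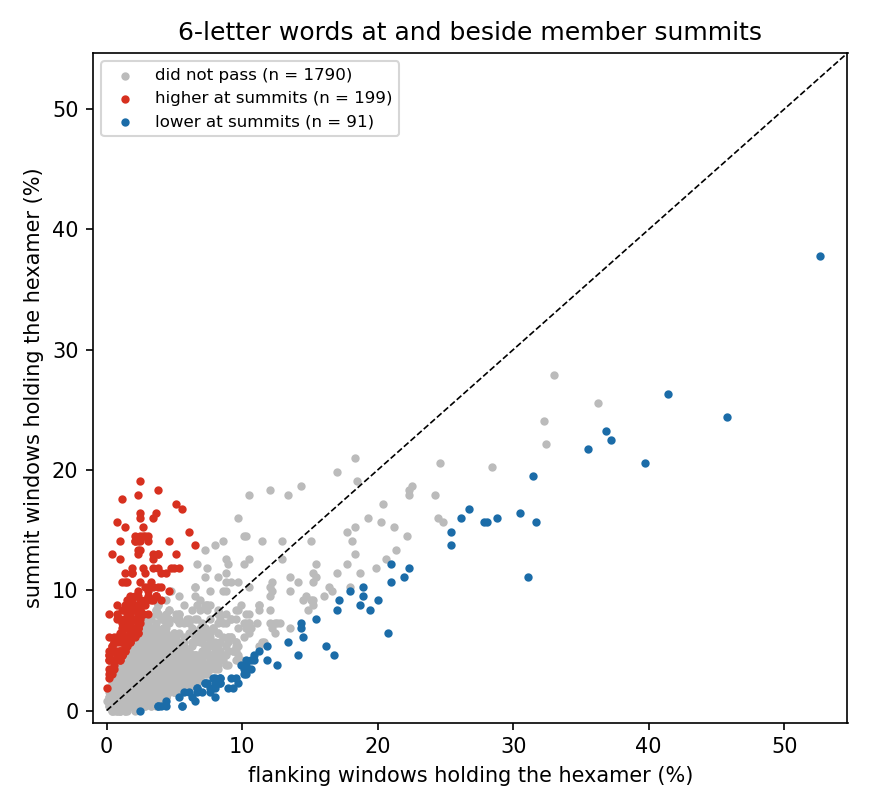
Share of the 262 member summit windows (y axis, %) and of the 524 flanking windows (x axis, %) that hold each of 2080 hexamers, reverse complements merged; red and blue points passed an exact binomial test with Benjamini-Hochberg adjustment and the dashed line marks equal shares. The 199 higher hexamers lie above the line and the 91 lower ones below it.

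Of 2080 hexamers, 199 (9.57%) were more frequent at member summits than beside them and 91 (4.38%) less frequent, by an exact binomial test of each with adjustment over all 2080. From the 158 divergent-promoter peaks of replicate 2 alone, and so from fewer windows, 108 were more frequent. Of those higher, 132 hold the dinucleotide CG and 154 have 4 or more G or C, and of those lower, 82 have 2 or fewer. These counts were not set against the same counts over all 2080 hexamers, so they are descriptions only. The leading hexamer, GCGCAC, was in 46 summit windows (17.6%) and in 6 of 524 flanking windows (1.15%; exact adjusted p = 4.48e-13), against 12.4% of one-direction windows and 2.39% of promoters. AGCGCG was in 15.6% of summit windows and 0.763% of flanks (exact adjusted p = 8.81e-13) and GACGCA in 19.1% and 2.48% (4.46e-11). GAGCGC was in 17.9% and 2.29%, CGTGGC in 12.6% and 0.954%, and GCGAGA in 18.3% and 3.82%. Hexamers with the TAAT core numbered 48, of which 0 were more and 11 less frequent at summits by the same exact binomial test, and TAATTA was in 3.82% of summit windows and 5.73% of flanks (exact unadjusted p = 0.316). The 4 letters TAAT were in 41.2% of summit windows, 69.1% of flanks and 41.6% of one-direction windows.

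No hexamer passed a test of members against one-direction peaks, which does not show that their sequences are alike. In a direct comparison of both sets of summit windows by Fisher's exact test, 0 of 2080 hexamers passed (lowest adjusted p 0.174), and 115 had an unadjusted p under 0.05. The lowest p was that of GATTTA, in 14.1% of member windows and 5.33% of one-direction windows.

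Longer words lay around some of these hexamers. Where at least 4 neighbouring positions held the same letter in 60% or more of the copies, the word was extended, which gave 4 motifs searched on both strands with up to 2 mismatches at their fixed letters. The motifs hold some of the leading hexamers, such as GAGCGC in its reverse complement GCGCTC. They were found in these windows, so the shares in members are descriptions. An excess of members over the other sets of windows, one-direction windows included, is favoured by this choice and was not tested. The motif GCAANNGCGCTCCANNG was in 45 member windows (17.2%), 0.191% of flanks, 9.33% of one-direction windows, 1.51% of windows at peaks outside promoters, 1.32% of promoters and 1.75% of windows midway in divergent pairs with no summit. Copies are shown on the strand that matches, with capitals for letters that match the fixed letters of the motif. For each motif the copies shown are those of the strongest members with at most 1 mismatch whose sequence is printed here.

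rpl-20 / Y17G9B.5 (chrIV:4750115-4750131, minus strand): GtAAgtGCGCTCCAccG
rpl-12 / lin-54 (chrIV:13240712-13240728, minus strand): GCAAgtGCGCTCCAcaG
ska-3 / rps-12 (chrIII:5679106-5679122, plus strand): GCAAgcGCGCTCtAtaG
F54D5.9 / dnj-13 (chrII:11545445-11545461, plus strand): GCAtgtGCGCTCCAccG

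Of these, the copy at rpl-12 / lin-54 matches at every fixed letter. Over all members, copies lay a median of 21 bp from the summit, and 24 of 45 had the orientation of the gene with the nearer start. Of 290 copies inside windows of both strands, 60 (20.7%) were inside an autosomal peak, and of all 4549 autosomal copies 135 (2.97%). The motif was built from copies at member summits, which favours copies inside peaks, so these shares are descriptions only.

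The motif TCGNNGCGAGACCC was in 37 member windows (14.1%), 1.15% of flanks, 6.22% of one-direction windows, 1.51% of windows outside promoters and 1.36% of promoters. Members with it had a median signal of 177 and those without it 124. For the other motifs the medians with and without were 119 and 134 (GCGCCA), 131 and 128 (GCTCCA) and 136 and 128 (CCTCTC), and none of these was tested. With 1 mismatch allowed it was in 10.3% of member windows, 0 of 524 flanks and 4% of one-direction windows.

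cct-8 / Y55F3AR.2 (chrIV:1094327-1094340, minus strand): TCGcgGCGgGACCC
mig-5 / cct-1 (chrII:8185199-8185212, minus strand): TCGtgcCGAGACCC
gmps-1 / cap-2 (chrII:10868935-10868948, minus strand): TCGcgGCGAGACCC
hsp-110 / rpn-3 (chrIII:8447159-8447172, plus strand): TCGttGCGAGACCC

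The copies at gmps-1 / cap-2 and hsp-110 / rpn-3 match every fixed letter, and the copy at mig-5 / cct-1 is centred on the summit itself. Of 404 copies in windows of both strands, 68 (16.8%) were inside a peak. For the motifs with GCGCCA and CCTCTC this share was 11.7% and 10.1%. All of these motifs were built at member summits, so the shares are descriptions only.

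The motif CNNNAANNGCGCCAG was in 56 member windows (21.4%), 4.96% of flanks, 18.2% of one-direction windows and 3.45% of promoters. With 3 mismatches allowed it was in 58% of member windows and 34.9% of flanks, so its share rests on that allowance. The motif TGTNCNCCTCTCNNNNNA was in 26 member windows (9.92%), 1.91% of flanks, 8.89% of one-direction windows, 7.05% of windows outside promoters and 2.19% of promoters. With 1 and 3 mismatches its share of member windows was 5.73% and 29%. Of its 26 copies, 21 had the orientation of the gene with the nearer start.

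F01G4.6 / pfd-1 (chrIV:11149806-11149820, plus strand): CtggcAatGCGCCAG
fbxb-85 / hex-3 (chrIII:10849018-10849032, plus strand): CgacAAgtGCGtCAG
F10E9.7 / F10E9.5 (chrIII:8307579-8307596, plus strand): TGTaatCCTCTCgggaaA
fbxb-85 / hex-3 (chrIII:10848988-10849005, minus strand): cGTaCtCCTCTCggataA

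The first pair are copies of the motif with GCGCCA and the second pair of the motif with CCTCTC. Together, 141 members (53.8%) held at least 1 of the 4 motifs and 21 held 2 or more. Their median signal was 127, and that of the members with none was 131.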

How the data were processed

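Deposited CEH-88 ChIP-seq peak lists on ce11 were used, 1 thresholded and 1 ranked list per replicate and such lists for the whole experiment. Per the labels, chromatin was sonicated to 200 to 800 bp. The authors deposited a score for each region, of at most 1000, and the thresholded lists hold no score below 830. The deposited signal value of each peak is the authors' peak caller's own measure, with no stated scale between lists. Per the deposited notes, the whole-experiment lists were made from the alignments of both replicates and a control alignment. Which aligner and caller were used is not given in the sources used here. Read depth is unknown. A ranked list for the whole experiment has 8 further columns that were not used, and the control experiment was not analysed here.

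Genes were those of Ensembl release 115 on WBcel235, the assembly of ce11, and sequence came from the RefSeq copy of that assembly. Sequence from chromosome I is not printed. The nearest protein-coding start on each strand named a member's pair. A replicate's value at a member was the signal of the strongest ranked region touching it by at least 1 bp. Shares carry exact 95% intervals (Clopper-Pearson), which cover the counting of peaks, pairs or genes only. Members and one-direction peaks were compared with Fisher's exact test over 4 differences, and hexamers between summit windows and windows 250 bp away with an exact binomial test, with Benjamini-Hochberg adjustment at 0.05. These p-values describe peaks of 1 list, not animals. The scripts were tested on simulated data. Python 3.11.15, numpy 2.4.6, pandas 2.3.3, SciPy 1.17.1 and matplotlib 3.10.9 were used.

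The members, the gene lists and the tests were chosen with earlier results of these data known. Named genes are the pairs at the 20 strongest and 3 weakest members, the 3 highest and 3 lowest ratios between replicates, members with both genes in a list, the 3 strongest members of each list, the 3 peaks nearest the window borders on each side, and the 3 widest and narrowest distances between starts. Other genes named were chosen after their values were seen. A member that this rule names is not reported here. Alternatives covered the promoter window, the choice of start, the overlap rule, neighbouring peaks, the peak list, each replicate alone, the summit window and the mismatches allowed in a motif.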

Additional observations from a re-analysis of the deposited data

How the results depend on the processing

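No paired analysis was possible because the only group has no second group to pair with. Of the main results under all alternatives, 42 values stayed within their limits, 7 moved, 4 lost the call and 1 gained it. When each replicate's own peaks replaced the whole list, the members numbered 158 to 236, their median signal was 75.2 to 85.3, 5.75% to 8.34% of pairs held a summit, and 108 to 212 hexamers were more frequent at summits. The lower count of each came from replicate 2 alone. Of those 158 peaks 96.2% touched a member, and of the 236 peaks of replicate 1 alone 87.7%. A 50% overlap of both regions lowered the both-replicate share to 38.9%, and a 500 bp window raised the share of pairs with a summit to 10.1%. The odds ratio for signal above the median was 1.41 in the conservative list (Fisher's exact adjusted p = 0.0793), 1.53 with a 500 bp window (0.0708), 1.5 with the most upstream start (0.0516), and 1.18 to 1.43 in the replicates alone (0.478 and 0.0387). That for the both-replicate share was 1.39 with summits within 100 bp (0.0415). For the conservative list it was 1.46 (0.239) and 1.64 (0.0516) with the 500 bp window and the most upstream start, alternatives chosen after seeing the data. The cause of these changes was not tested. With no read depth, no value here carries an error from sampling of reads.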

Other observations

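Hexamers called at the summits were also counted in the 66 members with a signal of 210 or more and in the other 196. The 3 named here were picked for their difference in share. ACCGTA was in 25.8% of the summit windows of the 66 and in 10.2% of those of the 196. ACGCTC was in 16.7% and 3.06%, and CGCAAC in 18.2% and 6.12%. G and C made up 48.6% of the bases in these 66 and 44.7% in the rest. Of 161 hexamers called at summits and present in 15 or more member windows, 94 had a larger share in the 66. These are descriptions of a split by the signal itself, with no test, and the part of base composition in them was not tested.

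Among the hexamers less frequent at summits, CTGAAA was in 11.1% of member summit windows and 31.1% of the windows beside them (exact binomial adjusted p = 1.15e-06), and AATTAT in 6.49% and 20.8%.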
